A study of Homo sapiens with 6 samples.

Results

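IFITM1, IFITM2, IFITM3, IFITM10 and BST2 encode membrane proteins grouped as restriction factors, and their transcripts were examined in HK-2, an established human cell line derived from the proximal tubule of the kidney and immortalised by human papillomavirus 16. The 5 genes were selected by their symbols from a table of 26899 genes, at a time when the differences between these same libraries were known, so their values are given as a description and carry no test of their own. All 5 had enough reads to enter the analysis of 15299 genes. To examine how ANXA2 knockdown affects the transcriptome, the study sequenced polyadenylated RNA from 3 libraries labelled control and 3 labelled ANXA2 knockdown. The titles and treatment labels called the control cells wild type and their descriptions abbreviated them as shCtrl, whereas the other group was abbreviated as shANXA2. Both groups had the same growth protocol, in which plasmids were delivered by lipid transfection. The labels do not say that replicates came from separate cultures, so the spread between them may be technical.

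IFITM proteins are small membrane proteins that sit at the cell surface and in endosomes and hinder the fusion of enveloped viruses with cellular membranes. IFITM1, IFITM2 and IFITM3 are classical interferon-stimulated genes, whereas IFITM10 is a distant relative whose function is poorly known. BST2 encodes tetherin, which is anchored in the membrane at both of its ends and holds budding virions at the cell surface. Interferon binding to its receptors activates a complex of transcription factors that holds STAT2 and IRF9 and binds the interferon-stimulated response element (ISRE) in the promoters of its targets. A different element, the gamma-activated site (GAS), serves mainly in the response to interferon gamma.

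IFITM2, IFITM1 and IFITM3 lie next to each other on chromosome 11 in GRCh38 (GENCODE release 44). IFITM2 spans chr11:303655-309397 on the plus strand, IFITM1 spans chr11:310041-315272 on the plus strand and IFITM3 spans chr11:319676-329475 on the minus strand. IFITM10 lies farther along the same chromosome at chr11:1732406-1750595 on the minus strand. BST2 lies at chr19:17402939-17405630 on the minus strand.

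The promoters of IFITM1, IFITM3 and BST2 are shown because they are the member promoters that were analysed and belong to the members with the most reads. The 150 bases before the RefSeq start of each gene on GRCh38.p14 are at chr11:313890-314039 on the plus strand for IFITM1, at chr11:320861-321010 on the minus strand for IFITM3 and at chr19:17405631-17405780 on the minus strand for BST2. For IFITM1 and IFITM3 the RefSeq start differs from that of GENCODE, and the printed bases lie within the gene spans given above. Capitals mark matches to the ISRE core, searched as GAAA, any 2 bases and GAAA on both strands.
IFITM1: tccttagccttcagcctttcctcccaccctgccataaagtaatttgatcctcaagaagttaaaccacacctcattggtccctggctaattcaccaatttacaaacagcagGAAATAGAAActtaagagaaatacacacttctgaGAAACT
IFITM3: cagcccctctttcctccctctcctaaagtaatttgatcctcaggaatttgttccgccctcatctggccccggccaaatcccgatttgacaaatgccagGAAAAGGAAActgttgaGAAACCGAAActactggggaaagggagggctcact
BST2: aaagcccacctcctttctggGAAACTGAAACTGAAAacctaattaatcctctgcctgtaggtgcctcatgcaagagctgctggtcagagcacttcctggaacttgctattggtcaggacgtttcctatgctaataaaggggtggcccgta

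Each of these promoters held 2 matches in the window of 300 bases that was searched. In IFITM1 they began at -40 and -6 from the start, and the latter ran 4 bases past the end of the printed stretch. In IFITM3 they began at -52 and -35, so that both lay close to the start. In BST2 they began at -130 and -124 and overlapped, which gives the run of 3 repeated units seen in capitals. Of 35116 RefSeq promoters of 300 bases (250 before the start and 50 after it), 3.57% held at least 1 match and 0.259% held 2 or more. GAS matches, searched as TTC, any 3 bases and GAA on both strands, were found at -12 in IFITM1 and at -136 and -58 in BST2, and in 7.66% of all promoters. IFITM3 had no GAS match in this window. The printed IFITM1 and IFITM3 stretches were 61.1% identical to each other, against 42.5% for IFITM1 and BST2 and 50.3% for IFITM3 and BST2. A match describes the letters in the window and does not show that a factor was bound.

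Library depth ranged from 24231267 to 34561675 counted reads. ANXA2, the targeted gene, checks the labels. Its abundance was 1519 to 1561 CPM (reads scaled to library depth) in the libraries labelled knockdown and 1461 to 1675 CPM in those labelled control, so the groups overlapped. The log2 fold change was -0.05 (SE 0.075, 95% interval -0.22 to 0.11), with an adjusted p of 0.848 by the quasi-likelihood test of edgeR with Benjamini-Hochberg adjustment. ANXA2 mRNA was thus not shown to be lower under the knockdown label, and control and knockdown below name the labels of the libraries only. Control replicate 1 stood farthest from the other libraries on the first principal component (38.5% of the variance), and values without it are given where they matter. On the second component (25.9%), control replicate 2 and knockdown replicate 3 stood at opposite ends. Of the epithelial markers, PAX8 was at 557 ± 147 CPM under the knockdown label and 477 ± 117 CPM under the control label (SD, n = 3). KRT8 was at 1223 ± 136 and 1099 ± 218 CPM. The proximal tubule markers of the list were uneven. LRP2 and AQP1 had 1 and 4 reads over all 6 libraries, and SLC34A1 and SLC5A2 had 81 each. GGT1, in contrast, was at 248 ± 36.4 and 229.6 ± 10.0 CPM, with overlap. CDH2, an adhesion molecule of proximal tubule cells, was at 134.6 ± 3.83 CPM against 159.6 ± 13.2 CPM, lower under the knockdown label without overlap. It was the only 1 of 10 tested markers without overlap. Over all tested genes, 7.7% were lower and 7.94% higher without overlap, so nothing is read from this count. PAX2, a kidney transcription factor, was at 6.29 ± 1.57 against 7.71 ± 2.23 CPM with overlap. Over 10 tested markers of that list, the median log2 fold change was 0.02.

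IFITM1, IFITM3, IFITM10 and BST2 were higher in all 3 libraries labelled knockdown than in any library labelled control. The fold was largest for IFITM1 (3.74) and smallest for BST2 (1.43), with IFITM3 at 2.20 and IFITM10 at 1.72. IFITM2 was low in every library and its groups overlapped. Among all 15299 genes tested, 7.94% were higher without overlap in this way and 7.7% were lower without overlap. The members were chosen from the same contrast, so nothing is read from their count of 4 of 5. In bulk RNA, more cells expressing a gene and more RNA per cell cannot be told apart.

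**Figure D1:**
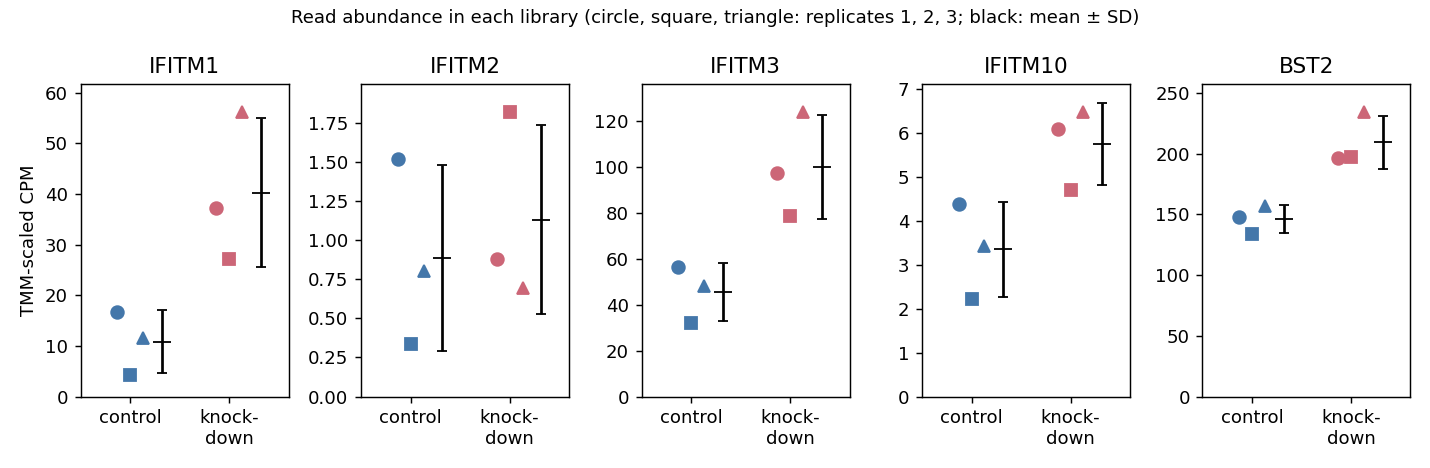
TMM-scaled CPM of each member in the 6 libraries, with points for single libraries and bars for the mean and SD of 3 libraries per label, and with a separate linear axis for each gene starting at 0. IFITM1, IFITM3, IFITM10 and BST2 do not overlap between the labels, whereas IFITM2 does.

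IFITM1, the member that acts mainly at the cell surface, had 406, 139 and 359 reads in control replicates 1, 2 and 3 and 1270, 898 and 1621 reads in knockdown replicates 1, 2 and 3. After scaling these were 16.6, 4.25 and 11.5 CPM against 37.2, 27.2 and 56.1 CPM. All libraries labelled knockdown were above all those labelled control, and the lowest of them was 1.63-fold above the highest control. The mean was 40.2 ± 14.7 CPM against 10.8 ± 6.23 CPM (SD, n = 3). The log2 fold change was 1.90 (SE 0.431, 95% interval 0.93 to 2.88), larger than that of 99.8% of all tested genes. The controls themselves varied 3.91-fold, with replicate 2 far below the other two. Without control replicate 2 the log2 fold change was 1.52, and without control replicate 1 it was 2.35.

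IFITM3, which protects cells from viruses that enter through endosomes, had 1381, 1045 and 1499 reads in the controls and 3321, 2601 and 3581 reads in the libraries labelled knockdown. These were 56.6, 31.97 and 48.1 CPM against 97.3, 78.8 and 124.0 CPM. The groups did not overlap, and the lowest library labelled knockdown was 1.39-fold above the highest control. The mean was 100.0 ± 22.8 CPM against 45.6 ± 12.5 CPM, and the log2 fold change was 1.14 (SE 0.222, 95% interval 0.64 to 1.64). Leaving out single libraries kept it between 0.94 and 1.32.

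BST2, the most abundant member, had 3605, 4384 and 4893 reads in the controls and 6700, 6512 and 6761 reads in the libraries labelled knockdown. On the CPM scale its values were 147.8, 134.1 and 157.1 against 196.3, 197.2 and 234.2. Tetherin transcripts were therefore separated by label with the smallest spread of all members, since the coefficient of variation was 10.3% in the knockdown group and 7.89% in the control group. The mean was 209.2 ± 21.6 CPM against 146.3 ± 11.6 CPM, with a log2 fold change of 0.52 (SE 0.108, 95% interval 0.27 to 0.76). Leaving out single libraries kept it between 0.43 and 0.57.

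IFITM10 had 107, 73 and 107 reads in the controls and 208, 155 and 187 reads in the libraries labelled knockdown. These were 4.39, 2.23 and 3.44 CPM against 6.10, 4.69 and 6.48 CPM. The gap between groups was narrow, because the lowest library labelled knockdown was 1.07-fold above the highest control. The log2 fold change was 0.79 (SE 0.280, 95% interval 0.15 to 1.42). Without control replicate 2 it was 0.56, and 1.02 was obtained when control replicate 1 was left out.

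IFITM2, which like IFITM3 is found in endosomes, had 37, 11 and 25 reads in the controls and 30, 60 and 20 reads in the libraries labelled knockdown. The counting error of so few reads is large, since the exact 95% Poisson interval was 5.49 to 19.7 for the 11 reads of control replicate 2 and 45.8 to 77.2 for the 60 reads of knockdown replicate 2. These intervals cover counting error only. On the CPM scale the means were 1.13 ± 0.603 and 0.885 ± 0.595. The log2 fold change of 0.37 (SE 0.611, 95% interval -1.004 to 1.75) covered changes in both directions, and it was -0.15 without knockdown replicate 2 and -0.02 without control replicate 2. Leaving out control replicate 1 instead gave 0.99. The libraries labelled knockdown differed beyond counting error, since the interval of replicate 2 lay above those of replicate 1 (20.2 to 42.8) and replicate 3 (12.2 to 30.9). A difference in IFITM2 between the labels was not detectable given the spread between libraries.

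By edgeR's quasi-likelihood test with Benjamini-Hochberg adjustment over all 15299 genes, 0 genes (0%) passed an adjusted p of 0.05, and the adjusted p of the 5 members lay between 0.442 and 0.873. At an unadjusted p under 0.05, 1251 genes passed. DESeq2 called 31 of 16467 genes (0.188%), of which 28 were higher, and these included IFITM3 (adjusted p 6.598e-05) and BST2 (adjusted p 0.0363). Without a filter on low counts, edgeR called 165 of 26899 genes (0.613%), including IFITM1 (adjusted p 6.139e-27), IFITM3 (adjusted p 6.025e-15) and BST2 (adjusted p 0.00413). IFITM2 and IFITM10 were called by none of these 3 fits. The log2 fold changes themselves hardly differed between the fits, being 1.14 for IFITM3 and 0.52 for BST2 in all 3. A log2 fold change of at least 1 was reached by 1.45% of all genes in the higher direction, and by IFITM1 and IFITM3 among the members.

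Levels of different genes were compared on the FPKM scale, which accounts for transcript length. BST2 was highest, at 192.9 ± 21.4 FPKM in the knockdown group and 136.2 ± 9.86 FPKM in the control group. IFITM3 followed at 77.6 ± 18.2 and 35.6 ± 9.48 FPKM, and then IFITM1 at 36.3 ± 13.6 and 9.81 ± 5.59 FPKM. In each of the 6 libraries BST2 was above IFITM3 and IFITM3 was above IFITM1. IFITM10 (1.46 ± 0.240 and 0.857 ± 0.266 FPKM) and IFITM2 (1.00 ± 0.531 and 0.793 ± 0.524 FPKM) were lowest. Their order was not resolved, since the ratio of IFITM10 to IFITM2 ran from 0.739 to 2.66 over the libraries.

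**Figure D2:**
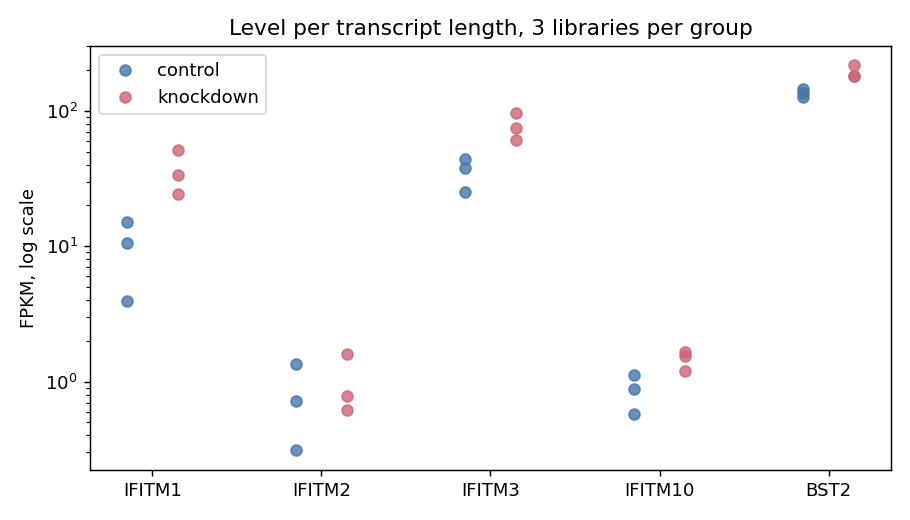
FPKM of the 5 members in each library on a log axis, by label. Within each label every BST2 point lies above every IFITM3 point and every IFITM3 point above every IFITM1 point, and IFITM10 and IFITM2 lie together at the bottom.

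The ratios among BST2, IFITM3 and IFITM1 were smaller under the knockdown label, whereas those to IFITM2 were not. The ratio of IFITM3 to IFITM1 in FPKM was 2.92, 6.45 and 3.59 in the controls and 2.25, 2.49 and 1.90 in the libraries labelled knockdown, without overlap. The ratio of BST2 to IFITM3 was 3.11, 4.99 and 3.88 in the controls and 2.40, 2.98 and 2.25 in the libraries labelled knockdown. BST2 exceeded IFITM1 by 9.07, 32.2 and 13.9-fold in the controls and by 5.39, 7.41 and 4.26-fold in the libraries labelled knockdown. The less abundant of each pair thus had the larger fold among these 3 genes. The ratio of IFITM1 to IFITM2 was 11.1, 12.7 and 14.6 in the controls and 42.8, 15.2 and 82.4 in the libraries labelled knockdown, higher without overlap. The ratios of IFITM3 and IFITM10 to IFITM2 overlapped between the labels, and all ratios to IFITM2 rest on its few reads. These ratios come from the contrast on which the members were chosen and are a description only.

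Within the labels, the members also varied together in part. Control replicate 2 was the lowest control for all 5 members, whereas it was the lowest control for 35.9% of all tested genes. Knockdown replicate 3 was the highest of its group for IFITM1, IFITM3, IFITM10 and BST2, against 41% of all tested genes. IFITM2 departed from this, with its highest value in knockdown replicate 2 and its lowest of that group in knockdown replicate 3. Profiles over the 6 libraries, centred on their means on the log2 CPM scale, were closest for IFITM3 and IFITM10, which differed by a root-mean-square of 0.192. They were farthest apart for IFITM1 and IFITM2, at 1.06.

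**Figure D3:**
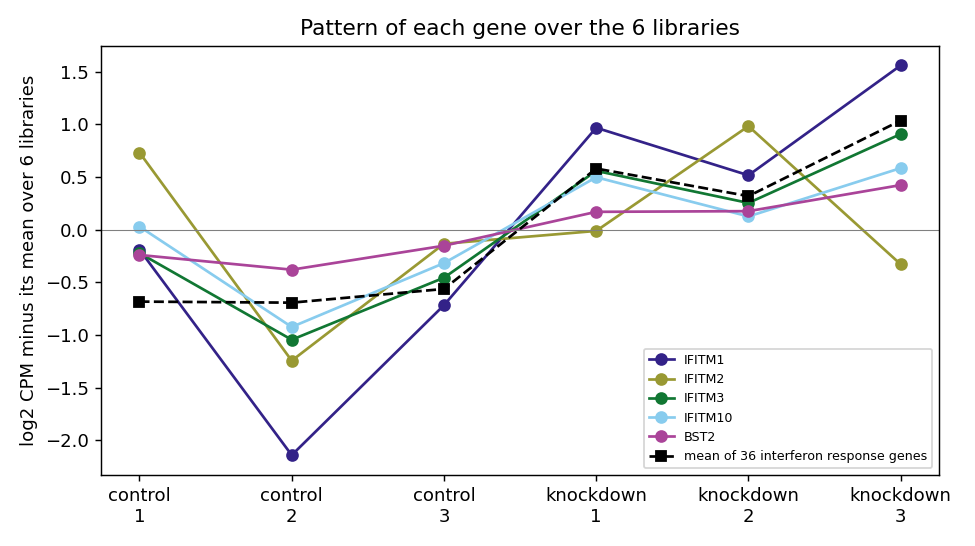
Log2 CPM of each member, centred on its mean over the 6 libraries, with lines that only join the points of a gene and a dashed line for the mean of 36 interferon response genes. IFITM1, IFITM3, IFITM10 and BST2 are lowest in control replicate 2 and highest in knockdown replicate 3, and IFITM2 is highest in knockdown replicate 2.

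To describe what else followed these profiles, the 3 most similar of 13222 genes were listed for each member. IFITM1 was closest to IRF7, the transcription factor that amplifies interferon production (root-mean-square difference 0.389 log2 CPM), and then to SMIM1 (0.391) and to ISG20, an interferon-induced exonuclease (0.463), where the median gene differed by 1.23. IFITM3 was closest to OAS3, which makes the activator of RNase L (0.119), to HELZ2 (0.129) and to VGF (0.157), against a median of 0.685. BST2 was closest to PHLDA3 (0.047), COQ4 (0.055) and TRIM25, a ubiquitin ligase of the RIG-I pathway (0.056), against a median of 0.345. IFITM10 was closest to KCNK15 (0.111), HOXA-AS3 (0.120) and PRICKLE4 (0.133), and IFITM2 to COL11A2 (0.205), CFAP57 (0.244) and EFNA3 (0.275). These likenesses over 6 libraries include the difference between labels.

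Other genes of the interferon response were described through a list of 37 genes that left out the members. The list was chosen with earlier results of these data known, so its shares are a description only. Of 36 tested, 35 had an estimate above 0, against 7495 of all 15299 tested genes. Of the 36, 24 were higher without overlap, 66.7% of the list against 7.94% of all genes. None were lower without overlap, against 7.7% of all genes, and 0 passed adjusted p 0.05 by edgeR. The median log2 fold change was 1.16, whereas the median of all genes was -0.01. OAS2, an oligoadenylate synthetase, had 7, 1 and 3 reads in the controls and 193, 99 and 274 reads in the libraries labelled knockdown. MX2, a GTPase that blocks viral nuclear import, had 0, 1 and 0 reads in the controls and 34, 27 and 50 in the others, and IFI27 had 7, 10 and 12 reads against 59, 36 and 123. Averaged over the list, log2 CPM was 2.41, 2.40 and 2.53 in the controls and 3.68, 3.41 and 4.13 in the libraries labelled knockdown. Knockdown replicate 3 was thus highest for the list, as it was for 4 members. The controls differed little in the list mean, in which variation of single genes can cancel. That mean is therefore not comparable with the 3.91-fold range of IFITM1 among the controls.

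The ligands and the signalling genes were lower in abundance or less shifted. Of 22 interferon ligand genes, 5 were in the table and 0 had enough reads to be tested, with a summed level of 0.173 to 0.333 CPM in the libraries labelled knockdown and 0 to 0.520 CPM in the controls. IFNB1, the gene of interferon beta, had 1, 3 and 0 reads under the knockdown label and 0 reads in each control. Of 15 tested receptor and signalling genes, 11 were above 0, with a median log2 fold change of 0.17. Of the 15, 3 were higher without overlap and 0 lower, against 7.94% and 7.7% of all tested genes. IRF7 had the largest change among them at 1.33 (SE 0.341), followed by IFNLR1, the interferon lambda receptor, at 0.61 (SE 0.323), whose groups overlapped, and STAT2 at 0.48 (SE 0.177). IRF9, the DNA-binding partner in the ISRE complex, had 5 reads over all libraries and was not tested.

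Genes that handle tetherin were near the median of all genes (-0.01), whereas most of those that handle IFITM proteins had an estimate below 0. The list for IFITM proteins, with palmitoyltransferases, kinases and sorting genes, had 2 of 10 above 0 and 0 without overlap in either direction, with a median of -0.15 on the log2 scale. Its largest differences were ZDHHC1 at 0.84 (SE 0.527), FYN at -0.65 (SE 0.527) and ZDHHC20 at -0.36 (SE 0.165). The list for tetherin, with endosomal sorting genes, had 5 of 8 above 0 and a median of 0.02. TSG101, a sorting component, was higher without overlap at 0.19 (SE 0.0998), whereas AP2M1 at 0.13 and HGS at 0.07 overlapped. Over all tested genes, 7.94% were higher and 7.7% lower without overlap.

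Relatives of the IFITM proteins in the CD225 family were scarcely expressed. TMEM233 (-0.81, SE 0.619), PRRT1 (0.24, SE 0.581) and TMEM91 (0.00, SE 0.505) were the 3 tested, and the groups of all 3 overlapped. Other membrane and entry restriction factors were mixed, with 8 of 12 above 0 and a median of 0.15. Of the 12, 3 were higher without overlap and 2 lower, against 7.94% and 7.7% of all tested genes. RSAD2, which encodes viperin, was at 2.62 (SE 0.488) and PLSCR1, a phospholipid scramblase, at 0.68 (SE 0.248), both also on the interferon list. SERINC5, which reduces the infectivity of virions, was at -0.47 (SE 0.174) and lower without overlap. These lists were chosen with earlier results of these data known, and 0 of their genes passed adjusted p 0.05 by edgeR.

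**Figure D4:**
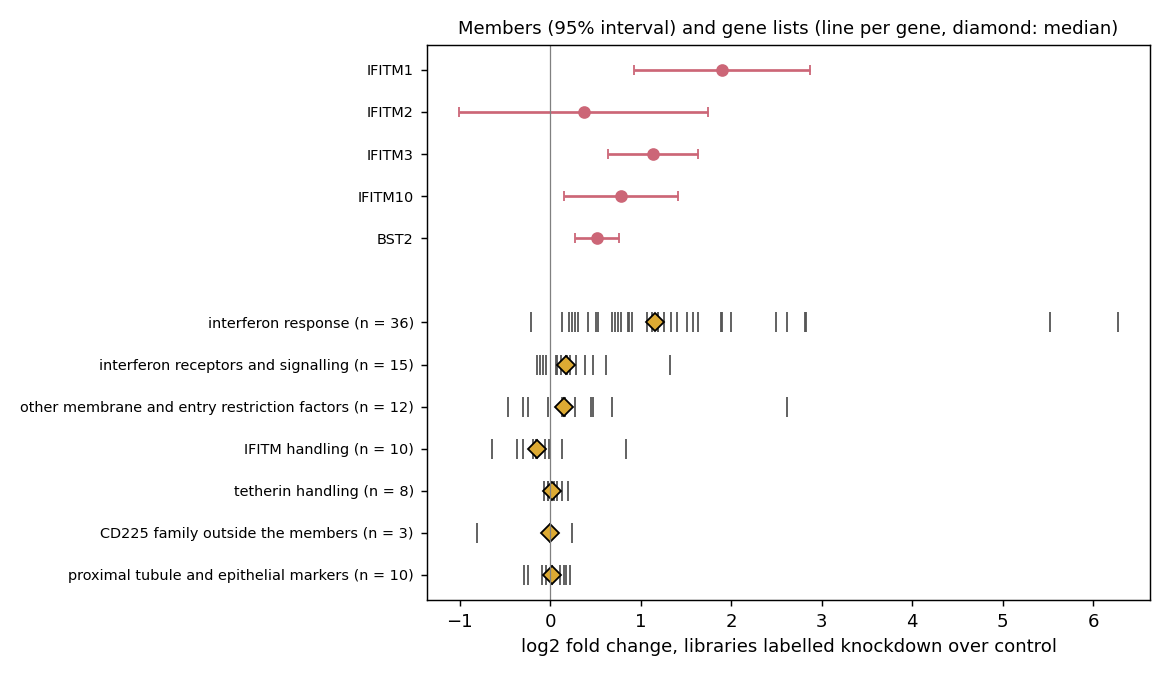
Log2 fold changes (knockdown label over control label) of the members, with their 95% intervals, and of the tested genes of 7 lists, with a line for each gene and a diamond for the median. The interferon response list is centred at 1.16, whereas the list for handling IFITM proteins is centred at -0.15 and that for tetherin at 0.02.

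Markers of leukocytes, which express many of these genes strongly, had few reads. Their summed level was 2.67 to 4.92 CPM in the libraries labelled knockdown and 2.02 to 3.98 CPM in the controls, and 7 of 15 were in the table, with CD14 taking 448 reads over all libraries. Endothelial and fibroblast markers summed to 30.6 to 31.6 CPM and 29.7 to 38.0 CPM. Only 3 leukocyte markers and 3 endothelial and fibroblast markers were tested, and 0 of them were without overlap between the labels. Over all tested genes, 7.94% were higher and 7.7% lower without overlap, so 0 among so few is not informative. The part of other cells in the members' levels was not tested.

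To place the members in their loci, the 5 nearest protein-coding genes on each side were examined. Around IFITM1, IFITM2 and IFITM3, 8 of 10 neighbours were tested, their median log2 fold change was 0.12 and 1 was higher without overlap. The nearest on the side of higher coordinate was B4GALNT4 at 40.0 kb, with 0.02 (SE 0.409). On the other side IFITM5 lies 4.13 kb away and was not analysed here. IFITM10 had 2 tested neighbours, both higher without overlap. Of these, CTSD, which encodes the lysosomal protease cathepsin D and lies 2.16 kb away, was at 1181 ± 57.8 CPM against 793.1 ± 65.0 CPM, a log2 fold change of 0.57 (SE 0.0847) without overlap. MVB12A, a sorting gene that lies 0.092 kb from BST2, was at 25.9 ± 2.45 CPM against 21.1 ± 1.75 CPM, also without overlap, with a log2 fold change of 0.30 (SE 0.129). CCDC194, on the other side of BST2, was at 0.55 (SE 1.05). Over all 17 tested neighbours the median was 0.25. Of these 17, 5 were higher without overlap and 1 lower, against 7.94% and 7.7% of all tested genes.

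**Figure D5:**
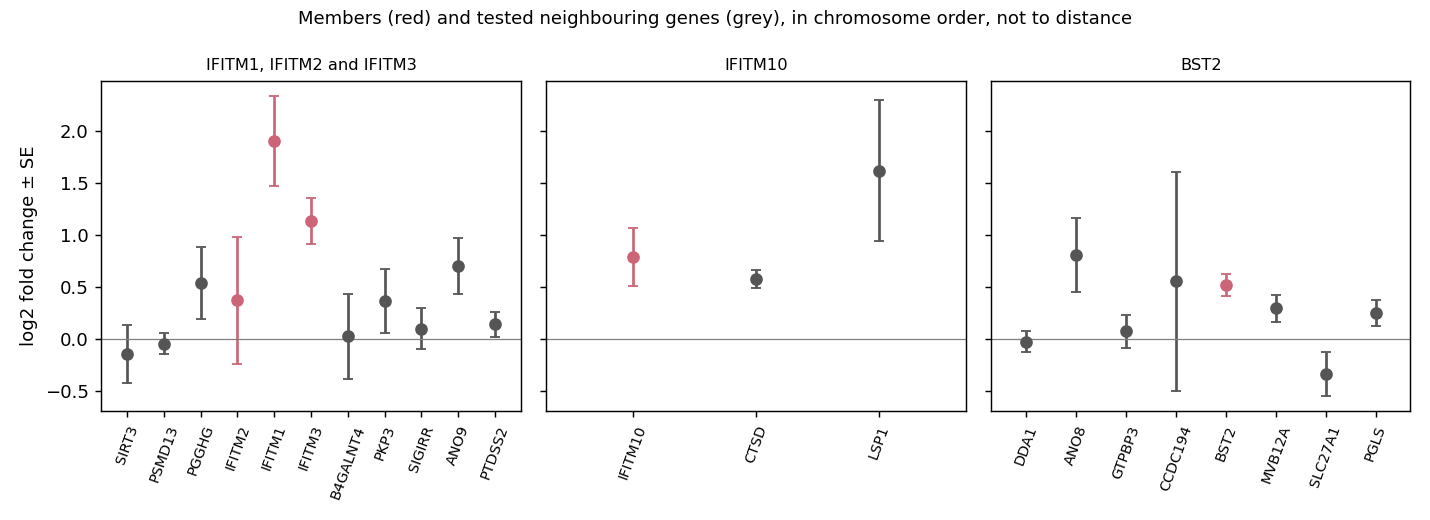
Log2 fold changes of the members and of the tested neighbouring genes at each locus, in chromosome order and not to distance, with members in red, neighbours in grey and bars for the SE. IFITM1 and IFITM3 lie above the 8 tested neighbours of their locus, and CTSD beside IFITM10 is at 0.57.

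Similar sequences and overlapping genes limit some of these values. The canonical transcripts of IFITM2 and IFITM3 were 82.8% identical over their aligned part, those of IFITM1 and IFITM3 74.1%, and those of IFITM1 and IFITM2 69.6%. Among windows of 100 bases, 285 of 569 in IFITM1 also occurred in another annotated gene, mostly a readthrough gene of the IFITM1 and IFITM2 region. With that gene left aside 42 were shared, all with IFITM3, and 0 of 902 in BST2 occurred in any other gene. In IFITM10, 965 of 3615 windows were shared with an annotated readthrough transcript that joins it to CTSD. The readthrough gene, listed as RP11-295K3.1, had 8640, 8879 and 10163 reads in the controls and 15572, 14553 and 12119 reads in the libraries labelled knockdown, far more than IFITM10 itself, with a log2 fold change of 0.47 (SE 0.107). Reads of the readthrough gene of the IFITM1 and IFITM2 region were not analysed here. The sources used here do not give how shared reads were counted, so the values of IFITM10 and of the IFITM1 to IFITM3 cluster are uncertain to that extent.

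The ISRE core was also counted in the promoters of the lists. Of 30 interferon response promoters, 21 (70%) held a match and 10 (33.3%) held 2 or more, against 3.57% and 0.259% of all promoters. The promoters of genes that handle IFITM proteins held it in 0 of 10 cases and those for tetherin in 0 of 5. Those of the CD225 relatives held it in 0 of 5 cases and those of the proximal tubule and epithelial markers in 0 of 12. With a match in 3.57% of all promoters, 0 among so few is not informative. Of 13 promoters of receptor and signalling genes, 1 held it (7.69%), as did 3 of 11 of the other restriction factors (27.3%) and 4 of 18 of the interferon ligands (22.2%). Among the markers of other cells, 1 of 9 leukocyte promoters (11.1%) and 1 of 4 endothelial and fibroblast promoters (25%) held it.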

How the data were processed

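RNA-seq of polyadenylated transcripts was available for 6 libraries of HK-2 cells, and the labels control and ANXA2 knockdown, with 3 libraries each, were taken from the titles. The authors deposited raw read counts per gene for 26899 genes. The authors also deposited FPKM values, which are the counts rescaled for transcript length and library depth. The submitters' processing notes name bcl2fastq, TopHat2, edgeR and build GRCh38. The counting program, annotation release and use of strand in counting are not given by the sources used here.

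Counts were fitted in R 4.3.3 with edgeR 4.0.16 (quasi-likelihood test), with TMM scaling, all 6 libraries in 1 model and the default low-count filter (minimum count 10, total 15), which left 15299 genes. Tests were two-sided, with Benjamini-Hochberg adjustment over all genes and a threshold of 0.05. CPM values are TMM-scaled and given with SD over 3 libraries. Log2 CPM used a prior count of 2. The fit was also run on simulated counts with the same dispersion for every gene. That setting held no library set apart from the others, unlike these data, so it does not vouch for the fit here. Replicate pairs within a label differed beyond sampling noise (chi-square per degree of freedom 10.4 to 53.5), so each library was counted as 1 sample. Depth was 24231267 to 34561675 reads, and counting error was widest for IFITM2 among the members, with 11 to 60 reads per library.

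The members and the 10 gene lists were chosen with earlier results of these data known. Named genes were the 5 members and ANXA2, the 3 genes of at least 1 CPM with profiles most like each member, the up to 3 genes of each list with the largest absolute change, and the nearest neighbour on each side. KRT8, LRP2, AQP1, GGT1, SLC34A1, SLC5A2, IRF9, IFNB1 and the readthrough gene were chosen after their values were seen. Alternatives were RLE, upper-quartile and library-size scaling, no filter or a filter of 1 CPM in 3 libraries, DESeq2 1.42.0, limma 3.58.1 (voom on counts, or trend on log2 FPKM with a pseudocount of 1 or 0.1), robust dispersion, a replicate block and leaving out each library. The counts of non-overlapping members and of interferon genes above 0 were repeated without each library after the data were seen. Of the identifiers, 26125 (97.1%) were found in GENCODE release 44. Promoters were matched by symbol for IFITM1, IFITM3 and BST2, and those of IFITM2 and IFITM10 were not analysed here.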

Additional observations from a re-analysis of the deposited data

How the results depend on the processing

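IFITM1, IFITM3, IFITM10, BST2 and ANXA2 kept their direction under all 17 alternatives. The number of genes past adjusted p 0.05 was 0 by edgeR, 165 without a low-count filter, 31 with DESeq2 and between 0 and 4 when single libraries were left out (4 without knockdown replicate 2). Without the filter, edgeR called IFITM1 (log2 fold change 1.91), IFITM3 (1.14) and BST2 (0.52). DESeq2 called IFITM3 (1.14) and BST2 (0.52). The causes of these differences were not tested. IFITM2 turned to -0.02 without control replicate 2 and to -0.15 without knockdown replicate 2, and ran from -0.15 to 0.99 when single libraries were left out. It had no value under the 1 CPM filter. Leaving out single libraries gave ranges of 1.52 to 2.35 for IFITM1, 0.94 to 1.32 for IFITM3, 0.56 to 1.02 for IFITM10, 0.43 to 0.57 for BST2 and -0.11 to -0.02 for ANXA2. The count of interferon genes above 0 was 35 of 36 without any single library. Of these 36, 24 were higher without overlap and could hardly change direction, so this count is a weak check. Genes without overlap cannot come to overlap when a library is left out, so the 4 members were bound to stay, and over all genes the number that were higher without overlap went from 1214 to between 1553 and 2474.

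Whether replicate numbers mark a shared culture or day is not given. Same-numbered libraries deviated from their group means with correlations of -0.06, 0.12 and -0.20, and differently numbered ones with -0.23 to 0.22. With 3 libraries per label these values cannot show or exclude pairing. With the replicate block, 0 genes passed, and the log2 fold change was 2.03 for IFITM1, 0.40 for IFITM2, 1.15 for IFITM3, 0.82 for IFITM10, 0.51 for BST2 and -0.05 for ANXA2. The adjusted p of edgeR's quasi-likelihood test was then 0.169 for IFITM1 and 0.111 for IFITM3, against 0.599 and 0.442 without the block. It was 0.904 for IFITM2, 0.693 for IFITM10 and 0.62 for BST2, against 0.873, 0.599 and 0.583. IFITM2 had 11 to 60 reads per library and the widest relative counting error of the members, and 3 libraries per label limit every comparison.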
